A study of Homo sapiens with 10 samples.

Results

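A set of 44 genes of the G2 phase and mitosis was examined: mitotic cyclins and kinases, spindle checkpoint, anaphase, kinetochore, spindle and cytokinesis genes, and markers of dividing cells. The members were given as a list of gene symbols. All 44 were found among the 57993 symbols of the tables and among the 17779 genes that were tested. They and the other lists used below were chosen with earlier results of these data known. Their counts beside the shares of all genes are therefore descriptions. RNA was measured in the human colorectal carcinoma line HCT116 and in a derivative of it without KDM5A (KDM5A-/-), an enzyme that takes methyl groups off lysine 4 of histone H3. There were 3 libraries of KDM5A-/- cells given empty vector, 3 of KDM5A-/- cells given wild-type KDM5A and 2 of KDM5A-/- cells given a mutant KDM5A whose change the labels do not name. Parental HCT116 cells with empty vector made up 2 more libraries. In every group the cells were sorted for GFP 24 hours after transfection, so the RNA comes from cells that had taken up a plasmid. Parental and KDM5A-/- lines were each a single purchased line, and the KDM5A-/- cells alone were grown with 300 ug/mL G418, so the genotype, the history of the line and the drug cannot be told apart in the comparison of the lines. The series title names proliferation, of which mitotic gene RNA is one readout.

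G2/M genes are transcribed in a wave that starts in late S phase and peaks as cells enter mitosis. CDK1 bound to cyclin B drives entry into mitosis, CDC25 phosphatases remove the inhibitory phosphates that hold CDK1 back, and the anaphase-promoting complex with CDC20 then marks cyclin B and securin for destruction so that the chromosomes separate. In G1 and in quiescent cells, the DREAM complex represses many of these genes through a promoter element called the cell cycle genes homology region (CHR), and the MuvB core with MYBL2 and FOXM1, together with NF-Y at nearby CCAAT boxes, is known for activating them later in the cycle.

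The promoters of 4 members are shown because these genes had the smallest adjusted p-values for wild-type KDM5A among members whose promoter window holds both elements. Each is the 300 bases that run from 250 bases before a RefSeq transcript start to 50 bases after it (GRCh38.p14), written 5' to 3' on the strand of the gene. Capitals mark TTTGAA or TTCGAA, the CHR letters, read on both strands (the reverse of TTTGAA is TTCAAA), and CCAAT, whose reverse is ATTGG.
CDC25B: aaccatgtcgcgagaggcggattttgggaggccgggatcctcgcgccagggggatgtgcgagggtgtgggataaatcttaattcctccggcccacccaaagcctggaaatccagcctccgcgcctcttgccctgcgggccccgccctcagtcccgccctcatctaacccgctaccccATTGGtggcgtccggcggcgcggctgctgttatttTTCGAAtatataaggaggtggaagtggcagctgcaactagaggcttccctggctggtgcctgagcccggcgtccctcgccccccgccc
CDK1: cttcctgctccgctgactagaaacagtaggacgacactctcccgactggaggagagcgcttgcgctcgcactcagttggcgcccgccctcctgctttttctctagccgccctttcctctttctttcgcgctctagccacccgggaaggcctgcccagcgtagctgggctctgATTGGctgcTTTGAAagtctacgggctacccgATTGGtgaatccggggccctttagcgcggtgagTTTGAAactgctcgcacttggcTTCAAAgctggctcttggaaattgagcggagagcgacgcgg
TOP2A: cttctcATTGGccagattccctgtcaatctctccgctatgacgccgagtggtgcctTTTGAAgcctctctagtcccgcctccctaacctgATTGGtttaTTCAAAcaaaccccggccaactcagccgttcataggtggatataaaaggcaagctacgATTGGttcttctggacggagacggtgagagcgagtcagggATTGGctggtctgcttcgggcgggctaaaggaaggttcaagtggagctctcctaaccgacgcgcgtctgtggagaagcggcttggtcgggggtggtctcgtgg
MKI67: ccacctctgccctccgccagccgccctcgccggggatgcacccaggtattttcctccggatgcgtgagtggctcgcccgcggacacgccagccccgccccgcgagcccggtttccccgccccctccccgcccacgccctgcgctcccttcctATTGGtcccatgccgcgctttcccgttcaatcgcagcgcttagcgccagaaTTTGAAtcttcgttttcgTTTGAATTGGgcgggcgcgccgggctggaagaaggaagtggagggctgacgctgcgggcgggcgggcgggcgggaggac
The CDC25B window, chr20:3796060-3796359 on the plus strand, has ATTGG 73 bases and TTCGAA 38 bases before the start. The CDK1 window, chr10:60778228-60778527 on the plus strand, holds ATTGG 78 and 46 bases and TTTGAA 69 and 13 bases before the start, and TTCAAA after it. TOP2A (chr17:40417847-40418146, minus strand) has 4 ATTGG boxes, with the nearest 53 bases before the start, TTTGAA 194 bases and TTCAAA 151 bases before it. MKI67 (chr10:128126374-128126673, minus strand) has ATTGG 98 bases and TTTGAA 47 and 29 bases before the start, and the second of these runs into an ATTGG so that the letters of both elements overlap. CDC25B has 4 windows and CDK1 has 2 in the table, and the one with the most matches is shown.

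RefSeq promoter windows were found for 38 of the 44 members. AURKA, BUB3, TTK, UBE2C, TPX2 and BIRC5 had no entry. By gene, a CHR match was present in 29 of the 38 (76.3%), against 19.5% of the 27305 genes with a window, and a CCAAT box in 31 (81.6%), against 39.7%. Both were present in 25 of the 38 members (65.8%) and in 7.85% of all genes. By window, 66.7% of the 48 member windows held a CHR match, against 16.4% of 35116 windows. These matches are descriptions of letters in a window, not of bound factors.

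Values are FPKM (fragments scaled to transcript length and library size), deposited as log2 and turned back to the linear scale here. In each library they sum to about 1000000, as values rescaled to a fixed total do, and whether the authors rescaled them is not stated. Sequencing depth is unknown. For comparison they were scaled between libraries by the median ratio over 13651 genes, and are called scaled FPKM. Fold changes are log2 differences of (scaled FPKM + 1) from limma, which understates changes of low genes. The threshold for a call was an adjusted p of 0.05, by Benjamini-Hochberg over all genes tested. The labels do not tell separate cultures from repeat libraries, and the p-values cover only the spread among these libraries. KDM5A itself was 12.2 to 17.7 scaled FPKM in the 5 empty-vector libraries, parental cells included, 13452 to 16237 with the wild-type plasmid and 22816 to 23346 with the mutant one. The parental and KDM5A-/- values overlapped. The labels do not say which part of the gene is deleted, so the RNA level does not check the deletion. Protein-coding genes made up 90.5% of the deposited total in both mutant libraries and 89.7% in parental library 2, against 92.6% to 92.9% in the other 7 libraries. Of 11 colorectal epithelial markers, 10 reached 1 scaled FPKM in every group (VIL1 was the exception, at 0.04 to 0.44), and their sum was 4796 to 4843 with empty vector, 5065 to 5324 with wild-type KDM5A, 5785 to 6275 with mutant KDM5A and 4516 to 5074 in parental cells. Of 7 fibroblast markers, COL1A1 alone reached 1, and the sums were 21.2 to 29.1, 18.1 to 25.4, 13.8 to 15.4 and 15.2 to 22.8 in the same order. Of 7 blood markers, 2 or 3 reached 1 by group, with summed values of 5.18 to 6.06 with empty vector, 8.72 to 11.7 with wild-type KDM5A, 10.7 to 19.7 with mutant KDM5A and 5.48 to 8.78 in parental cells. PTPRC, which marks all white blood cells, was at most 0.71. The part of these values in the results was not tested.

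With wild-type KDM5A, 6 of the 44 genes fell and none rose: CDC25B, CDK1, TOP2A, NEK2, UBE2C and MKI67. That is 6 of 44 against a background of 4.54% of all genes in either direction, 2.02% lower and 2.52% higher. Of the 44 log2 fold changes, 38 were below 0, against 49.8% of all genes, and their median was -0.17, against 0.00074 over all genes. In 26 members every wild-type library lay below every empty-vector library, against a background of 16.2%, and in 1 (CDC20) every one lay above, against 16.4%. The shift was shared across libraries: relative to the empty-vector mean, the median member differed by -0.20, -0.19 and -0.16 log2 units in the wild-type libraries, and by 0.03, -0.03 and -0.01 in the empty-vector libraries. In bulk RNA, fewer cells in G2 or mitosis and less RNA of each gene per cell cannot be told apart.

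With mutant KDM5A, 16 members passed: 12 were lower and 4 higher (PTTG1, CKS2, BUB3 and CDC20, of which CKS2, BUB3 and CDC20 turned below 0 in the values as deposited). Of all genes tested, 16.5% passed, 7.05% lower and 9.48% higher. The median member log2 fold change was -0.13, and 32 of 44 were below 0, against 50.9% of all genes. In 21 members the 2 mutant libraries lay below every empty-vector library (background 23.6%) and in 6 above (background 23.3%). The 2 mutant libraries differed from each other: the median member was -0.06 and -0.20 log2 units from the empty-vector mean.

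Between mutant and wild-type KDM5A no member passed with limma, against 0.0562% of all genes (0.0337% higher and 0.0225% lower). At an unadjusted p under 0.05 there were 13 of 44, against 20.2%. The median member log2 fold change was 0.05, and 19 of 44 were below 0, against 50.1%. BUB3, NUSAP1, PTTG1, CCNB2 and CKS2 came closest, with log2 fold changes of 0.29, 0.43, 0.53, 0.28 and 0.25 and adjusted p = 0.0926, 0.0927, 0.0937, 0.109 and 0.122. With only the mutant and wild-type libraries in the fit, 1 member passed, as higher. Over all genes 356 passed in that fit, against 10 in the main fit. The parental libraries, which this comparison does not use, also enter its spread. Leaving out either of them let some members pass, all as higher, while the median member log2 fold change stayed at 0.05. The absence of calls thus depended on libraries outside the comparison. Every mutant library lay above every wild-type library in 16 members (background 19.5%) and below in 8 (19.4%). A p that misses the threshold does not show whether both forms act alike. CENPE, which tethers chromosomes to microtubules, differed by -0.80 log2 units (SE 0.34, adjusted p = 0.236). With single libraries left out its difference ran from -0.95 to -0.51. Its wild-type libraries spread widely, at 5.67, 5.46 and 10.9 scaled FPKM, against 3.52 and 3.71 with mutant KDM5A.

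Parental cells had 6 members lower than KDM5A-/- cells with the same empty vector (CENPF, MKI67, CDC20, PLK1, ANLN and KIF20B) and 1 higher (CKS2), against backgrounds of 4.84% and 4.09%, or 8.94% in either direction. The median log2 fold change was -0.05, 29 of 44 were below 0 (background 50.3%), and 14 were lower and 6 higher with no overlap of the groups (backgrounds 21.9% and 20.6%). Without parental library 2, 1 member passed, lower. All 3 comparisons with the empty-vector KDM5A-/- cells share those 3 libraries, so their values are set side by side and no overlap between them is counted.

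**Figure D1:**
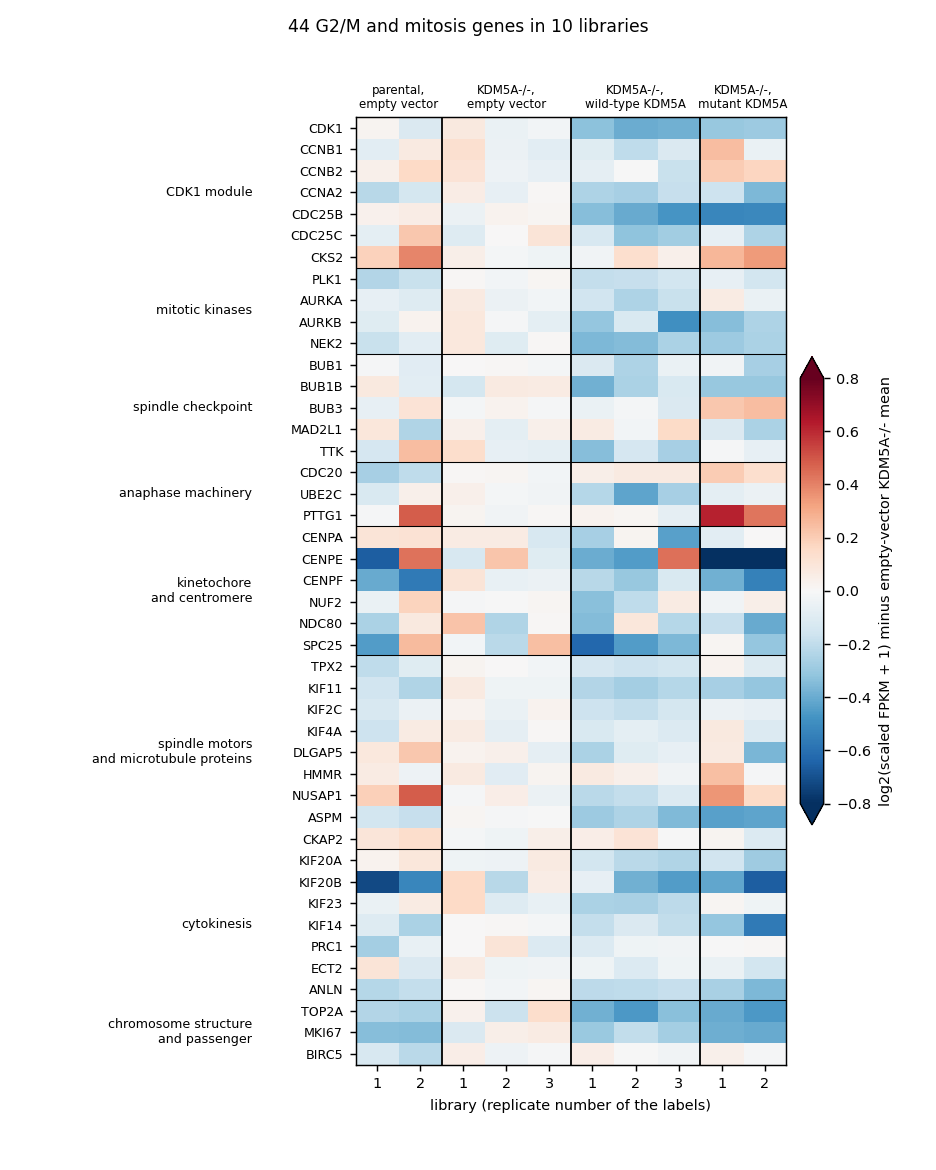
Log2 level of each of the 44 genes (rows, by role) in the 10 libraries (columns, by group), relative to the mean of the 3 empty-vector KDM5A-/- libraries. Most genes are below 0 in the wild-type libraries, where the median gene is at -0.16 to -0.20, and the 2 mutant libraries mix lower and higher genes.

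Averaged over all 10 libraries, the members ran from 6.83 scaled FPKM for CENPE to 260.4 for CDC20, a comparison of genes that FPKM allows because it is per length. Their summed share of the deposited total was 0.315% to 0.322% with empty vector, 0.267% to 0.275% with wild-type KDM5A, 0.249% to 0.255% with mutant KDM5A and 0.288% to 0.302% in parental cells. After scaling the sums were 2902 to 3009.6 with empty vector, 2687 to 2700.1 with wild-type KDM5A, 2863 to 3023 with mutant KDM5A and 2769 to 2986 in parental cells. The wild-type sums were below all others, and the mutant and empty-vector sums overlapped. In all, 18 members passed in at least 1 comparison and 26 in none. The same count over all genes was not made, so it has no background, and mutant KDM5A alone called 16.5% of all genes. Among the 26, log2 fold changes ran from -0.48 to 0.07 with wild-type KDM5A, from -0.93 to 0.25 with mutant KDM5A and from -0.17 to 0.34 in parental cells.

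Within the CDK1 group (CDK1, CCNB1, CCNB2, CCNA2, CDC25B, CDC25C and CKS2), 2 of 7 passed as lower with wild-type KDM5A and none higher. Of all genes, 2.02% passed as lower and 2.52% as higher. CDC25B is the phosphatase that activates CDK1 at the start of mitosis, and it had the smallest adjusted p of the set. It was 87.4 and 89.0 scaled FPKM in the parental libraries, 82.8, 87.2 and 86.3 with empty vector, 67.3, 64.3 and 61.4 with wild-type and 59.1 and 59.5 with mutant KDM5A. The group mean was 85.4 ± 2.32 (SD, n = 3) for empty vector, 64.3 ± 2.97 (SD, n = 3) for wild-type KDM5A and 59.3 ± 0.260 (SD, n = 2) for mutant KDM5A. No library with a KDM5A plasmid overlapped an empty-vector library, and both parental libraries were above every empty-vector library. Its mean fell 1.32-fold on the fitted scale with wild-type KDM5A (log2 fold change -0.40, SE 0.05, adjusted p = 0.00466) and 1.43-fold with mutant KDM5A (log2 fold change -0.52, SE 0.05, adjusted p = 0.00151). Both calls held whichever of the 10 libraries was left out, with adjusted p up to 0.0314 and 0.0127.

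CDK1, the kinase that starts mitosis, was 72.4 and 65.7 in parental cells, 75.3, 68.5 and 70.2 with empty vector, 56.5, 53.8 and 54.3 with wild-type and 57.5 and 58.0 with mutant KDM5A. The group mean was 71.3 ± 3.53 (SD, n = 3) for empty vector, 54.9 ± 1.45 (SD, n = 3) for wild-type KDM5A and 57.8 ± 0.369 (SD, n = 2) for mutant KDM5A. Both KDM5A groups lay below every empty-vector library, and the parental libraries overlapped the empty-vector range. It fell with wild-type KDM5A (log2 fold change -0.37, SE 0.06, adjusted p = 0.0112) and with mutant KDM5A (log2 fold change -0.30, SE 0.06, adjusted p = 0.016). The first call was lost without wild-type library 2 or 3 (adjusted p up to 0.0582) and the second without mutant library 1 (0.0699). CCNB1, its cyclin partner, did not pass in any comparison, at 189, 167 and 163 with empty vector, 162, 149.7 and 159.6 with wild-type and 206 and 167 with mutant KDM5A, and 163 and 182 in parental cells. Its libraries spread widely within the mutant group.

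CKS2, a small protein that binds CDK1, moved the other way with mutant KDM5A. It was 186, 178 and 175 with empty vector, 176, 198 and 185 with wild-type KDM5A, 216 and 228 with mutant KDM5A and 204 and 236 in parental cells, so both mutant and both parental libraries lay above all 3 empty-vector libraries. With mutant KDM5A it rose (log2 fold change 0.30, SE 0.07, adjusted p = 0.0259), and in parental cells it was higher (log2 fold change 0.29, SE 0.07, adjusted p = 0.0445). The mutant rise reversed, to -0.04, when the values were compared as deposited without the scaling, and the call was lost without empty-vector library 2 or 3 or either mutant library (adjusted p up to 0.0944). The parental call was lost without any one of 7 libraries, namely all 3 empty-vector libraries, all 3 wild-type libraries and parental library 2, with adjusted p up to 0.223. CCNA2, which partners CDK1 and CDK2 before mitosis, was lower with mutant KDM5A (log2 fold change -0.26, SE 0.07, adjusted p = 0.0394), a call lost without any one of 7 libraries: the 3 empty-vector, the 3 wild-type and mutant library 2 (adjusted p up to 0.171).

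Among the mitotic kinases (PLK1, AURKA, AURKB and NEK2), all 4 log2 fold changes were below 0 with wild-type KDM5A, from -0.32 to -0.17. Of all genes, 49.8% were below 0. PLK1, which drives centrosome maturation and mitotic entry, was 119.6, 117 and 119.8 with empty vector, 104, 104 and 107 with wild-type, 113 and 107 with mutant KDM5A and 101 and 105 in parental cells. All wild-type, mutant and parental libraries were below all empty-vector libraries. The parental difference passed (log2 fold change -0.21, SE 0.05, adjusted p = 0.0337), and the adjusted p was 0.0587 with wild-type and 0.164 with mutant KDM5A. The parental call was lost without any one of 8 libraries, the mutant ones being the exception, with adjusted p up to 0.105. NEK2, a kinase that splits the centrosomes, was 35.2, 30.9 and 33.3 with empty vector, 25.6, 25.7 and 27.7 with wild-type, 26.8 and 27.6 with mutant KDM5A and 29.1 and 31.2 in parental cells. It fell with wild-type KDM5A (log2 fold change -0.32, SE 0.07, adjusted p = 0.0328) and with mutant KDM5A (log2 fold change -0.27, SE 0.07, adjusted p = 0.0371). The wild-type call was lost without any one of the 6 libraries compared (adjusted p up to 0.119). The mutant call was lost without any one of 7: empty-vector libraries 1 and 3, both mutant and all 3 wild-type libraries (up to 0.139).

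The spindle checkpoint holds anaphase until every chromosome is attached. None of its 5 members passed with wild-type KDM5A and 1 passed with mutant KDM5A, against 4.54% and 16.5% of all genes. BUB3, which carries the checkpoint proteins to kinetochores, was 182, 188 and 183 with empty vector, 178, 182 and 169.8 with wild-type, 214 and 219 with mutant KDM5A and 176 and 199 in parental cells. Both mutant libraries were above every empty-vector library, and the rise passed (log2 fold change 0.23, SE 0.06, adjusted p = 0.0326). It became -0.11 as deposited and -0.02 with quantile normalization, and the call was lost without any empty-vector or mutant library or wild-type library 1 (adjusted p up to 0.099).

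CDC20 activates the anaphase-promoting complex, and PTTG1 is securin, the inhibitor that the complex destroys to release separase. CDC20 was 259, 261 and 254 with empty vector, 267, 272 and 272 with wild-type, 297 and 283 with mutant KDM5A and 215 and 224 in parental cells. Mutant and wild-type libraries were above all empty-vector libraries, and parental libraries below all of them. It was higher with mutant KDM5A (log2 fold change 0.17, SE 0.05, adjusted p = 0.0367), which turned to -0.17 as deposited and -0.09 with quantile normalization, and lower in parental cells (log2 fold change -0.23, SE 0.05, adjusted p = 0.0159). The mutant call was lost without any empty-vector or wild-type library or mutant library 1 (adjusted p up to 0.163), and the parental call without empty-vector library 2 (0.0574). PTTG1 was 148, 143 and 147 with empty vector, 149, 147 and 139 with wild-type, 224 and 197 with mutant KDM5A and 145 and 204 in parental cells. Empty-vector and wild-type libraries shared one range, and both mutant libraries lay above it. Parental library 1 lay within the empty-vector range and parental library 2 within the mutant range. It rose with mutant KDM5A (log2 fold change 0.52, SE 0.12, adjusted p = 0.0232). PTTG1 has near-identical copies such as PTTG2, so its reads could be split between genes, and its call was lost without mutant library 1 or any of the 3 empty-vector libraries (adjusted p up to 0.129). UBE2C, the ubiquitin-conjugating enzyme of the same complex, fell with wild-type KDM5A (log2 fold change -0.30, SE 0.06, adjusted p = 0.0339), a call lost without any one of the 6 libraries compared (adjusted p up to 0.113). With mutant KDM5A its log2 fold change was -0.06 (adjusted p = 0.59), and the difference between both forms did not pass (adjusted p = 0.123).

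**Figure D2:**
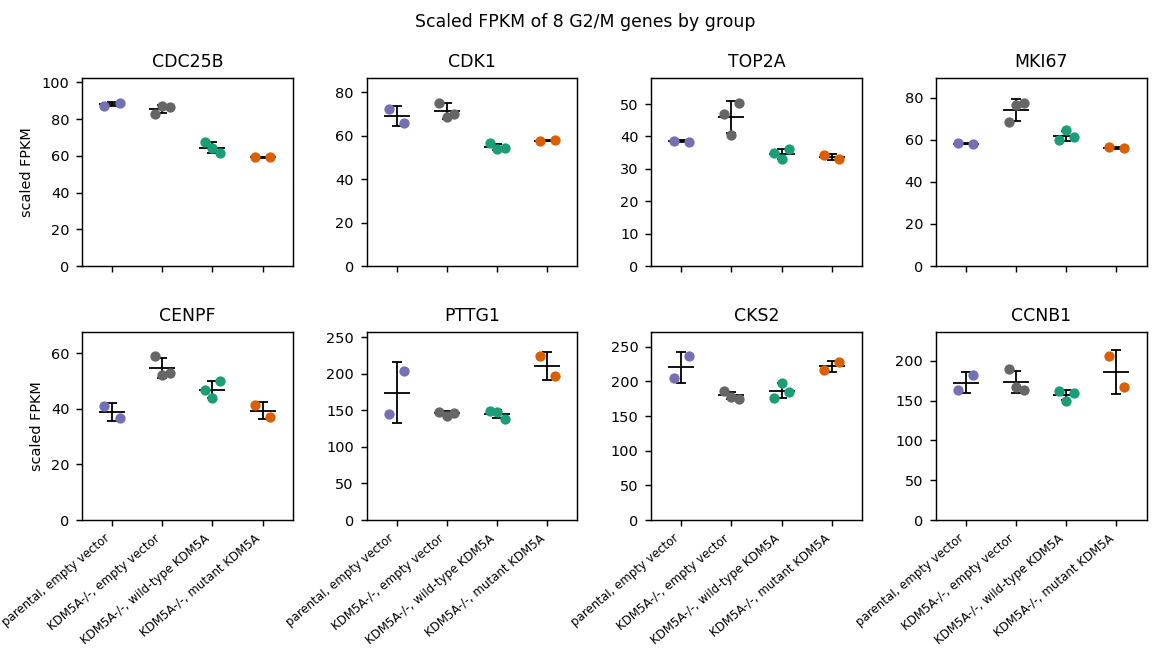
Scaled FPKM of 8 genes in each library (dots), with the group mean and SD (bars), for parental, empty-vector, wild-type and mutant KDM5A libraries. CDC25B and CDK1 are lower in both KDM5A groups than in any empty-vector library, and PTTG1 is higher in the mutant libraries alone among the KDM5A-/- groups.

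Of 6 kinetochore and centromere genes, none passed with wild-type KDM5A and 1 passed with mutant KDM5A, against 4.54% and 16.5% of all genes. CENPF, a kinetochore protein that accumulates in G2, was 58.8, 52.3 and 52.9 with empty vector, 46.7, 44.03 and 50.02 with wild-type, 41.5 and 37.2 with mutant KDM5A and 41.1 and 36.6 in parental cells. Parental and mutant libraries were below every wild-type library, and wild-type below every empty-vector library. With mutant KDM5A it fell (log2 fold change -0.46, SE 0.09, adjusted p = 0.011), a call kept whichever library was left out, and in parental cells it was lower (log2 fold change -0.48, SE 0.09, adjusted p = 0.0121), a call lost without parental library 2 (adjusted p = 0.0817). With wild-type KDM5A its log2 fold change was -0.22 (adjusted p = 0.16). The largest member log2 fold change with wild-type KDM5A was that of SPC25, another kinetochore gene, at -0.48 with an adjusted p of 0.194.

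In the spindle group of 9 genes, none passed with wild-type KDM5A and 2 passed with mutant KDM5A, against 4.54% and 16.5% of all genes. ASPM, a protein of the spindle poles, was 11.4, 11.1 and 11.2 with empty vector, 9.02, 9.34 and 8.60 with wild-type, 8.07 and 8.14 with mutant KDM5A and 10.1 and 9.80 in parental cells. It was lower in the mutant libraries than in any other library and fell (log2 fold change -0.43, SE 0.08, adjusted p = 0.0112), a call kept whichever library was left out (adjusted p up to 0.0486). KIF11, the motor that pushes the poles apart, was 18.8, 17.4 and 17.5 with empty vector, 15.1, 14.6 and 15.2 with wild-type, 14.8 and 14.3 with mutant KDM5A and 16.0 and 15.0 in parental cells. It fell with mutant KDM5A (log2 fold change -0.29, SE 0.07, adjusted p = 0.031), and the call was lost without any empty-vector or mutant library or wild-type library 1 or 3 (adjusted p up to 0.09). With wild-type KDM5A the log2 fold change was -0.24 (adjusted p = 0.0724).

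Of the 7 cytokinesis genes, none passed with wild-type KDM5A and 3 passed with mutant KDM5A, against 4.54% and 16.5% of all genes. ANLN, the anillin of the contractile ring, was 56.3, 55.1 and 56.7 with empty vector, 48.3, 48.5 and 49.2 with wild-type, 46.6 and 43.5 with mutant KDM5A and 47.6 and 49.1 in parental cells. Empty-vector libraries were above all others. The log2 fold change with wild-type KDM5A was -0.20 (adjusted p = 0.0504), with mutant KDM5A it fell (log2 fold change -0.31, SE 0.05, adjusted p = 0.00833), a call kept whichever library was left out, and parental cells were lower (log2 fold change -0.21, SE 0.05, adjusted p = 0.043), a call lost without any one of the empty-vector, wild-type and parental libraries (adjusted p up to 0.126). KIF14, a motor of the midbody, was 8.98, 9.02 and 8.86 with empty vector, 7.72, 8.18 and 7.66 with wild-type, 7.04 and 5.73 with mutant KDM5A and 8.25 and 7.34 in parental cells. It fell with mutant KDM5A (log2 fold change -0.44, SE 0.11, adjusted p = 0.0264), a call lost without any empty-vector library or mutant library 2 (adjusted p up to 0.108). KIF20B, a kinesin of the late spindle, was lower with mutant KDM5A (log2 fold change -0.54, SE 0.16, adjusted p = 0.0494) and in parental cells (log2 fold change -0.62, SE 0.16, adjusted p = 0.0442). Both calls were lost without any one of empty-vector libraries 1 and 3, wild-type libraries 2 and 3 and both parental libraries, and the mutant call also without either mutant library (adjusted p up to 0.183 and 0.143).

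TOP2A, the topoisomerase that untangles chromosomes, was 46.9, 40.6 and 50.5 with empty vector, 34.9, 33.0 and 36.2 with wild-type, 34.4 and 33.0 with mutant KDM5A and 38.7 and 38.3 in parental cells. All wild-type, mutant and parental libraries were below all empty-vector libraries. It fell with wild-type KDM5A (log2 fold change -0.39, SE 0.08, adjusted p = 0.0308) and with mutant KDM5A (log2 fold change -0.43, SE 0.09, adjusted p = 0.0144). The first call was lost without 5 libraries (empty-vector 1 and 3 and all wild-type libraries, adjusted p up to 0.115) and the second without either mutant library (adjusted p up to 0.0538). MKI67, the Ki-67 proliferation marker that coats chromosomes, was 68.3, 76.6 and 77.6 with empty vector, 60.0, 64.6 and 61.1 with wild-type, 56.3 and 55.9 with mutant KDM5A and 58.4 and 57.9 in parental cells. All wild-type, mutant and parental libraries were below all empty-vector libraries. It fell with wild-type KDM5A (log2 fold change -0.26, SE 0.06, adjusted p = 0.0469) and with mutant KDM5A (log2 fold change -0.39, SE 0.07, adjusted p = 0.00791), and parental cells were lower (log2 fold change -0.34, SE 0.07, adjusted p = 0.0158). The mutant call was kept whichever library was left out (adjusted p up to 0.0367), the wild-type call was lost without empty-vector library 2 or 3, mutant library 1 or any wild-type library (up to 0.163), and the parental call without empty-vector library 2 or 3 or parental library 2 (up to 0.0765). BIRC5, which encodes survivin, did not pass, with log2 fold changes of 0.01 and 0.02 with wild-type and mutant KDM5A and -0.17 in parental cells.

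**Figure D3:**
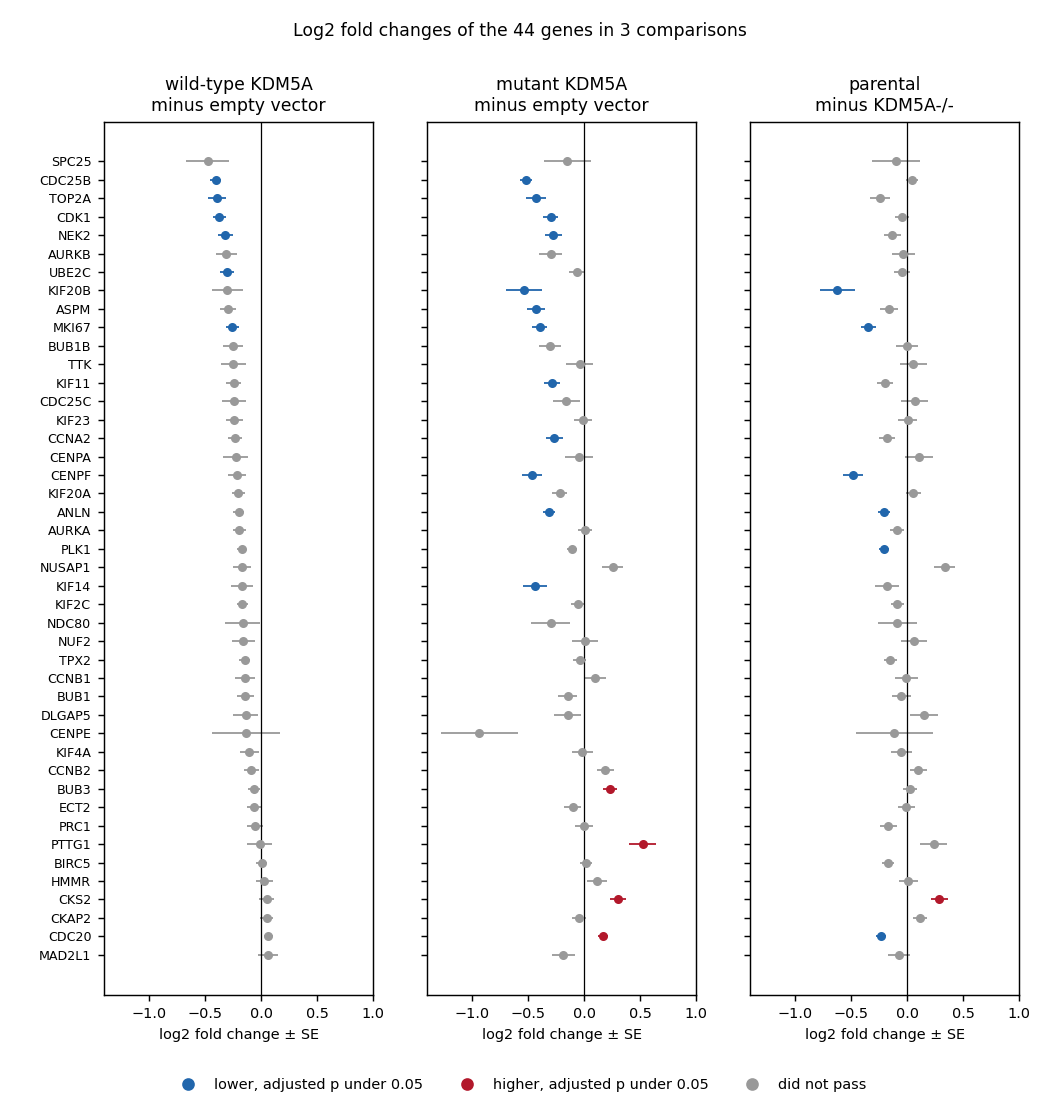
Log2 fold changes (points) with standard errors (bars) of the 44 genes for wild-type KDM5A, mutant KDM5A and parental cells, each against empty-vector KDM5A-/- cells, which all 3 share. Genes are ordered by the wild-type change, and CDC25B is low in the 2 plasmid comparisons and near 0 in parental cells.

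The count of members that passed depended on single libraries. For wild-type KDM5A, leaving out empty-vector library 1, 2 or 3 gave 3, 3 and 2 members. Leaving out wild-type library 1, 2 or 3 gave 2, 1 and 1, and leaving out a mutant or parental library gave 8 or 9. With only the libraries compared it was 11, all lower, against 1801 of all genes. For mutant KDM5A, dropping each empty-vector library in turn gave 9, 9 and 7, and dropping mutant library 1 or 2 gave 7 and 8. For parental cells it was 3, 3 and 2 without an empty-vector library, 4, 3 and 3 without a wild-type library, and 1 without parental library 2. Compared as deposited, the mutant comparison gave 35 lower members and none higher. Quantile normalization gave 11 lower and none higher, against 12 lower and 4 higher after scaling. Over all genes, 6150 were lower and 458 higher as deposited, 1223 and 887 with quantile normalization, and 1254 and 1685 after scaling. As deposited, the median of all genes was -0.30 with mutant and -0.10 with wild-type KDM5A.

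Promoter letters were also set beside the calls. Among the 29 members with a CHR match, 4 passed as lower with wild-type KDM5A and their median log2 fold change was -0.17. Among the 9 without one 1 passed, as lower, and the median was -0.17. Of all genes, 2.02% passed as lower. With mutant KDM5A, 10 of the 29 were lower and 2 higher, and 2 of the 9 were lower and 1 higher. Of all genes, 7.05% were lower and 9.48% higher. The medians were -0.15 for the 29 and -0.22 for the 9. The split by CHR match was not tested.

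Exonic length, which the list did not use, ran from 613 to 12807 bases over the 44 members, with a median of 3947. The Spearman correlation between length and the log2 fold change over the 44 members was -0.04 for wild-type KDM5A, -0.51 for mutant KDM5A, -0.65 for mutant against wild-type KDM5A and -0.45 for parental cells. Over 17349 genes the same correlations were -0.03, -0.14, -0.16 and 0.01. These are descriptions across genes of the same libraries. With mutant KDM5A, of the 22 shorter members 3 were lower and 3 higher, with a median of -0.04. Of the 22 longer ones 9 were lower and 1 higher, with a median of -0.25. Of all genes, of any length, 7.05% were lower and 9.48% higher. After a correction for length in the fit, the members' correlation with the mutant change was -0.39. In single libraries, the shorter minus the longer members' median was 0.23 and 0.24 in the mutant libraries, 0.06 and 0.16 in the parental libraries and from -0.02 to 0.04 in the other 6. With the length correction, 15 members passed with mutant KDM5A, and 2753 of all genes.

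**Figure D4:**
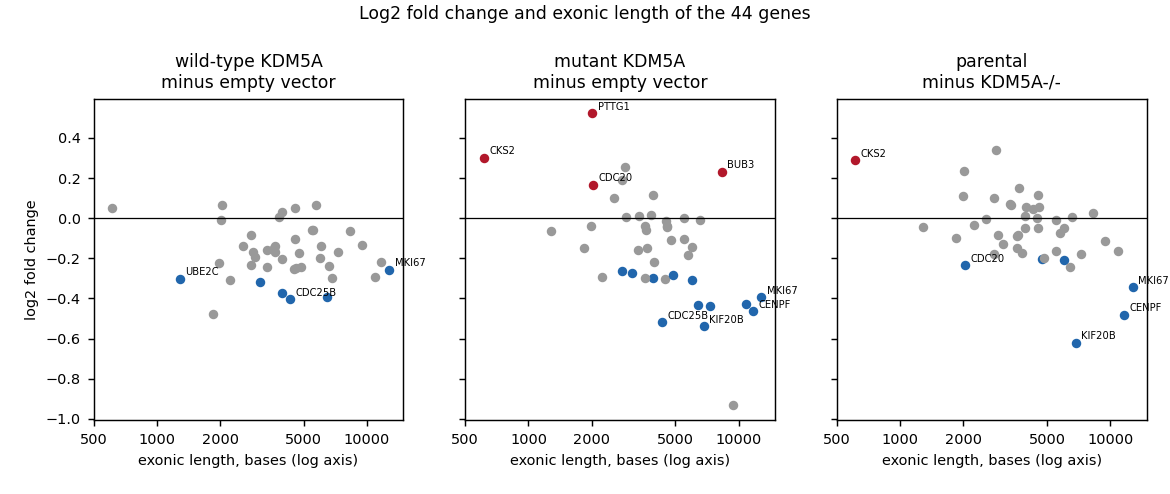
Log2 fold change of the 44 genes against exonic length in bases (log axis), for wild-type KDM5A, mutant KDM5A and parental cells, each against empty-vector KDM5A-/- cells. Blue points passed as lower, red points as higher (CKS2, BUB3 and CDC20 fall below 0 with mutant KDM5A in the values as deposited) and grey points did not pass. The Spearman correlation was -0.04, -0.51 and -0.45.

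Other genes of the same machinery were followed in 6 lists with 129 members, all tested. With wild-type KDM5A 1 passed, against backgrounds of 2.52% higher and 2.02% lower: FAM83D, a spindle protein, was lower (log2 fold change -0.46, SE 0.06, adjusted p = 0.00812), whichever library was left out. With mutant KDM5A 4 of 129 were higher and 15 lower, against 9.48% and 7.05% of all genes, and in parental cells 5 were higher and 13 lower, against 4.09% and 4.84%. None passed between mutant and wild-type KDM5A. The median log2 fold changes of the 129 were -0.10, -0.05, 0.02 and -0.12 for wild-type KDM5A, mutant KDM5A, mutant against wild-type KDM5A, and parental cells.

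Of the 17 transcription regulators of the G2/M program, none passed with either plasmid, FOXM1 and MYBL2 included. In parental cells 2 were higher and 2 lower, against 4.09% and 4.84% of all genes. MYBL2, the activator of late cell cycle genes, was lower (log2 fold change -0.37, SE 0.06, adjusted p = 0.00748) and RBBP4, a subunit of the MuvB core, was higher (log2 fold change 0.27, SE 0.05, adjusted p = 0.00873), and both calls held whichever library was left out. E2F5, a repressive E2F partner of DREAM, was higher (log2 fold change 0.72, SE 0.14, adjusted p = 0.0177), a call lost without empty-vector library 3 or parental library 2 (adjusted p up to 0.117). E2F4, named after its value was seen, was the other lower gene.

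Among 16 mitotic entry genes, 4 were lower with mutant KDM5A, against 7.05% of all genes. These were CCNF, GTSE1, PKMYT1 and PKN2, the last named after its value was seen. In parental cells 1 of the 16 was lower and 1 higher, against 4.84% and 4.09%. CCNF had a log2 fold change of -0.34 (adjusted p = 0.0143), lost without mutant library 1 (0.0636), and GTSE1 one of -0.33 (0.0178), lost without empty-vector library 3 or mutant library 1 (up to 0.0972). PKMYT1, a kinase that inhibits CDK1, was lower with mutant KDM5A (log2 fold change -0.24, adjusted p = 0.0232), a call lost without any one of the 5 libraries compared (up to 0.0954). It was also lower in parental cells (log2 fold change -0.41, SE 0.06, adjusted p = 0.00387), whichever library was left out. CHEK1, the checkpoint kinase, was higher in parental cells by 0.56 log2 units (adjusted p = 0.0421), a call lost without any one of 7 libraries: empty-vector 2 and 3, all 3 wild-type and both parental (up to 0.162).

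Of 17 anaphase-promoting complex genes, 3 were higher with mutant KDM5A, against 9.48% of all genes. ANAPC11, ANAPC5 and ANAPC15 were higher by 0.28, 0.23 and 0.39 log2 units, of which ANAPC11 and ANAPC5 turned to -0.06 and -0.11 as deposited. The ANAPC11 call held whichever library was left out. That of ANAPC5 was lost without empty-vector library 2 or 3 or mutant library 1 (adjusted p up to 0.133), and that of ANAPC15 without empty-vector library 2 or 3 or mutant library 2 (up to 0.113). In parental cells ANAPC11 was higher by 0.23 log2 units, a call lost without parental library 2, wild-type library 1 or 2, or empty-vector library 2 or 3 (up to 0.125).

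Of 21 condensin, cohesin and sister separation genes, 6 were lower with mutant KDM5A and 6 in parental cells, against 7.05% and 4.84% of all genes. PDS5A (log2 fold change -0.39, SE 0.05, adjusted p = 0.00461) and NIPBL (log2 fold change -0.44, SE 0.07, adjusted p = 0.00714), which regulate and load cohesin, were lower with mutant KDM5A whichever library was left out. NCAPD3, a condensin subunit, was lower, with a log2 fold change of -0.47 (adjusted p = 0.00968), a call lost without mutant library 1 (0.0509). In parental cells CDCA5, the cohesin protector sororin, was lower (log2 fold change -0.52, SE 0.06, adjusted p = 0.00222), as was NIPBL (log2 fold change -0.45, SE 0.07, adjusted p = 0.00736), and both calls held whichever library was left out. SMC4, a condensin subunit, was lower in parental cells with an adjusted p of 0.0328, a call lost without any empty-vector or parental library or wild-type library 2 (up to 0.154).

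In the other kinetochore list of 32 genes, 2 were lower with mutant KDM5A and none higher, against 7.05% and 9.48% of all genes. They were KNTC1 and CASC5, with log2 fold changes of -0.38 and -0.48. The KNTC1 call was lost without empty-vector library 2 or 3 or mutant library 1 (adjusted p up to 0.1) and that of CASC5 without any empty-vector library, mutant library 1 or wild-type library 1 or 3 (up to 0.173). In parental cells 3 were lower and 1 higher, against 4.84% and 4.09% of all genes. ZWINT was lower (log2 fold change -0.51, SE 0.07, adjusted p = 0.00273), whichever library was left out. CENPO was lower, a call lost without either parental library, wild-type library 1, or empty-vector library 2 or 3 (up to 0.128), and CENPH was higher, a call lost without empty-vector library 2 or 3 or any wild-type or parental library (up to 0.133). SPDL1, named after its value was seen, was the other lower gene. Among 26 other spindle genes, mutant KDM5A had FAM83D (log2 fold change -0.47, SE 0.07, adjusted p = 0.00622) lower whichever library was left out, SPAG5 lower (lost without empty-vector library 2 or 3 or mutant library 2, adjusted p up to 0.12) and HAUS1 higher (lost without empty-vector library 1 or 2 or any mutant or wild-type library, up to 0.131). DEPDC1, named after its value was seen, was also lower. That made 3 of the 26 lower and 1 higher, against 7.05% and 9.48% of all genes. KIF18A, a kinesin that shortens spindle microtubules, was lower in parental cells, a call lost without any empty-vector or wild-type library or parental library 1 (up to 0.137).

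WEE1, the kinase that restrains CDK1, passed in none of the 4 comparisons (log2 fold change -0.23, adjusted p = 0.0716 with wild-type KDM5A). CDKN1A, the p21 inhibitor of cyclin-dependent kinases, was 312, 321 and 318 with empty vector and 396, 399 and 399.6 with wild-type KDM5A. The rise of 0.33 log2 units (SE 0.07, adjusted p = 0.0354) was lost without any one of the 6 libraries compared (adjusted p up to 0.118). Mutant and parental libraries also lay above all empty-vector libraries, by 0.14 and 0.25 log2 units (adjusted p = 0.258 and 0.0828). Between mutant and wild-type KDM5A the adjusted p was 0.218. Among 43 G1/S and replication genes, 1 passed with wild-type KDM5A, as lower, against 2.02% of all genes. It was FEN1, the flap endonuclease, with a log2 fold change of -0.28. The FEN1 call was lost without any one of the 6 libraries compared (adjusted p up to 0.0888). With mutant KDM5A 4 of 43 were higher and 4 lower, against 9.48% and 7.05% of all genes. Of these, CDT1 (lower) and CCNE1 (higher) passed no longer on dropping either mutant library or empty-vector library 2 or 3 (adjusted p up to 0.0864 and 0.0837), and POLE (lower) without empty-vector library 1 or 3 or mutant library 1 (up to 0.131). In parental cells 9 were lower and none higher, against 4.84% and 4.09%. MCM2 and MCM5, of the replicative helicase, and FEN1 were lower, with log2 fold changes of -0.46, -0.60 and -0.43, and these 3 calls held whichever library was left out.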

How the data were processed

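RNA from 10 libraries of sorted HCT116 cells was measured. The values the authors deposited are log2 FPKM, 1 table per library with 60141 loci, and each library's linear values sum to about 1000000. Per the submitters' processing notes, the build was GRCh38 and the tools included Cufflinks 2.2.1, GATK 4.1.2, Picard and STAR 2.7.1a. Their roles, the annotation and the strand setting are not given in the sources used here, so reads of overlapping or antisense genes cannot be separated. Per the labels' protocols, sequencing used either of the NovaSeq and HiSeq instruments, with no assignment to libraries.

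Linear values were summed over loci of a symbol and scaled by the median of ratios. Genes with at least 1 scaled FPKM in at least 2 libraries were kept, and log2(value + 1) was fitted with limma 3.58.1 (R 4.3.3; lmFit and eBayes with trend) over all 10 libraries and 4 groups, without covariates. Python 3.11.15, pandas 2.3.3, numpy 2.4.6 and matplotlib 3.10.9 were used for the rest. Exonic lengths came from GENCODE release 29, to which 93.4% of loci were matched, and promoters from RefSeq. The fit was tested on simulated data with 200 changed genes. It recovered 40.3% to 50.7% of changes of 0.5 log2 units, so many changes of that size can be missed. Because only FPKM were used, no count test was run and no depth is known. The named genes are CDK1, CCNB1, PLK1, MKI67 and the members that passed with the smallest adjusted p, up to 14, in every library; the other members appear by counts and ranges, with values for some as examples. From each other list and comparison come up to 3 genes that passed with the smallest p, plus FOXM1, MYBL2, WEE1 and CDKN1A. The members and lists were chosen with earlier results of these data known. Alternatives covered scaling, pseudocounts, filters, library weights, a replicate block, a length correction, the libraries in the fit, and leaving out each library.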

Additional observations from a re-analysis of the deposited data

How the results depend on the processing

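Of 593 alternative values of the 29 member calls, 402 kept direction and call, 186 lost the call and 5 reversed. The calls kept under every alternative tried were CDC25B with wild-type KDM5A and CDC25B, ANLN, ASPM, CENPF and MKI67 with mutant KDM5A. All of these genes were longer than the median member of 3947 bases, from 4314 for CDC25B to 12807 for MKI67. Longer members were lower with mutant KDM5A (Spearman correlation -0.51, and -0.39 after the length correction). What part length had in these calls was not tested. The reversed values, all with mutant KDM5A, were -0.0373 for CKS2, -0.108 for BUB3 and -0.173 for CDC20 in the values as deposited, and -0.0199 for BUB3 and -0.0942 for CDC20 with quantile normalization. ANAPC11 (-0.0598) and ANAPC5 (-0.110) also reversed as deposited. The cause was not tested.

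For wild-type KDM5A the 6 members became 15 as deposited, 17 with library weights and 11 with only the libraries compared. Over all genes, 807 became 736, 2101 and 1801 in the same order. For mutant KDM5A the 16 became 35 as deposited, 10 with no filter and 9 with library weights, and the 2939 of all genes became 6608, 2155 and 1984. Between mutant and wild-type KDM5A the count of 0 became 5 as deposited and 1 with only the libraries compared. The 10 of all genes became 1490 and 356. For parental cells the 7 became 3 with library weights, 1 with only the libraries compared and 2 without both mutant libraries and parental library 2. Leaving out each library gave 1 to 9 members with wild-type KDM5A, 7 to 17 with mutant KDM5A, 0 to 4 between both forms and 1 to 8 in parental cells.

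Deviations from the group means correlated at -0.09 to 0.05 over 13 same-numbered pairs of libraries and -0.08 to 0.09 over 24 others. Deviations within a group cancel out, so these correlations are not independent and cannot decide whether replicate numbers pair the libraries. With the replicate block, 3, 7, 0 and 1 members passed, and 214, 1109, 1 and 556 of all genes. Depth is unknown, so its limit on low members such as CENPE could not be assessed.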
